A study of Homo sapiens with 4 samples.

Results

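The genes described here encode the enzymes that write and erase acetyl and methyl marks on histones, the proteins that read those marks, and the ATP-driven machines that move nucleosomes. They were taken by symbol from the gene table: the HDAC, SIRT, KDM, KAT, PRMT, SETD, SUV, EHMT, EZH, BRD, CBX, ING and SMARC families, without symbols that carry a hyphen and without 1 demethylase gene that the rule left out. This gave 101 members of 25548 gene symbols, in 13 families. FaDu, an established squamous carcinoma line from the hypopharynx, was grown in RPMI-1640 with serum and measured in 2 groups of 1 library each. The Aza/TSA group received 5 µM 5-aza-2'-deoxycytidine (Aza) on days 1, 2 and 3 and 100 nM trichostatin A (TSA) on day 3, and the DMSO group received vehicle, DMSO for Aza and ethanol for TSA. RNA was made into stranded mRNA libraries. The 2 UMSCC47 libraries of the same study were not analysed here.

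Acetyl groups are put on histone lysines by acetyltransferases and removed by 2 kinds of deacetylase, the zinc-dependent HDACs, which TSA inhibits, and the NAD-dependent sirtuins, which it does not. Methyl groups are placed by SET-domain and arginine methyltransferases, removed by KDM demethylases, and read by domains such as the chromodomains of CBX proteins. Aza is built into DNA, traps DNA methyltransferases there and lowers DNA methylation. The drugs act on the enzymes and the DNA, so what is measured here is the RNA of these regulators and not their activity.

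The comparison asks which of these genes differ in RNA level after both kinds of silencing were inhibited. Levels are in FPKM, fragments scaled to transcript length and to the size of the library, a scale on which different genes can be compared per length. The change of a gene was log2((FPKM + 1 in Aza/TSA)/(FPKM + 1 in DMSO)), called the log2 change below; the added 1 shrinks it for weakly expressed genes. A gene with 1 FPKM or more in at least 1 of the libraries was taken as measured, and calls of higher or lower needed a 2-fold change by this measure. With 1 library per group no difference has a replicate check, and no p-value is given. How many reads lie behind a value is unknown.

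Most of these genes differed little between the libraries. Among the 95 measured members, 8 (8.42%) were called higher in the Aza/TSA library, against 16.1% of 13558 measured genes, and 3 (3.16%) were called lower, against 5.21%. The higher ones were HDAC5, HDAC7, HDAC11, SIRT6, KDM5C, KDM6B, CBX6 and CBX8, and the lower ones were SIRT5, SMARCA2 and CBX5. Of these, HDAC5, HDAC11, KDM5C, KDM6B, CBX6 and CBX5 passed the 2-fold line by less than 0.1 on the log2 scale. The median log2 change was 0.12 over the measured members and 0.13 over all measured genes, and the median size of the change in either direction was 0.37 in members and 0.54 in all genes. Of the measured members 53 were above their DMSO level and 42 below, and of all measured genes 7594 and 5964. Family counts above or below the DMSO level stand against these. At 1.5-fold 23 members were higher, against 30.7% of all genes, and 4 lower, against 16.1%. By this measure, with 1 added to each FPKM, no member reached 3-fold, against 6.0% of all genes higher and 1.12% lower at that fold. Without the added 1 the ratio of FPKM passed 3 in some members, such as HDAC11 (3.20). After the changes were centred on the median of all measured genes, a shift of 0.13, 2 members were higher and 3 lower. With upper-quartile scaling 4 were higher and 3 lower.

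**Figure D1:**
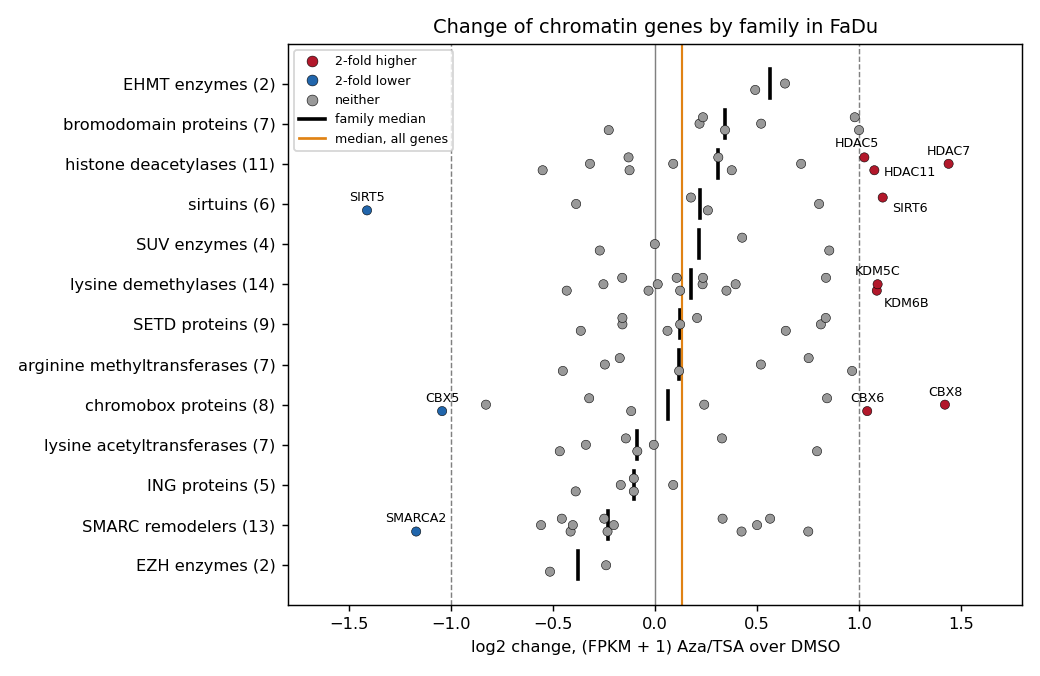
Log2 change of the 95 measured members in FaDu, Aza/TSA over DMSO, by family, with the number measured in brackets; each point is a gene, black bars are family medians, dashed lines mark 2-fold and the orange line is the median of all measured genes (0.13). Family medians run between −0.38 for the EZH enzymes and 0.56 for the EHMT enzymes, and called genes are labelled.

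The change of a gene went with the GC content of its transcript, in members and in all genes. The Spearman correlation between GC content and log2 change was 0.54 across the 95 measured members and 0.63 across 12526 measured genes with a matched transcript, as a description across genes of the same pair of libraries. The called-higher members had a median transcript GC of 61.1% (54.9 to 64.9%) and the called-lower members 42.9% (41.8 to 48.2%). Of 36 members with 55% GC or more, 7 were higher and none lower, where 34.3% of 3879 genes in that range were higher. Of 26 members under 45% GC, none was higher and 2 were lower, where 9.88% of 4534 genes were lower. When the trend of all genes on GC was subtracted, 1 member, HDAC9, was higher, against 7.41% of genes, and 6 were lower, against 4.26% of genes, among them HDAC4, SIRT3, SIRT5, KAT8 and SMARCD3. SIRT5 was the member called in the same direction both ways. The trend was fitted on genes at 5 FPKM or more in each library and subtracted in full from weaker genes too. PRMT8, with equal values in both libraries, thus came to −0.35. HDAC4, HDAC9, SIRT3, SIRT5 and SMARCD3 were all outside that fit. After subtraction the Spearman correlation with GC content was −0.24 in the members and 0.03 in all genes, so a reversed trend remained in the members. Whether GC content has a part in any single difference below was not tested, and GC-subtracted values are given beside the main ones.

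**Figure D2:**
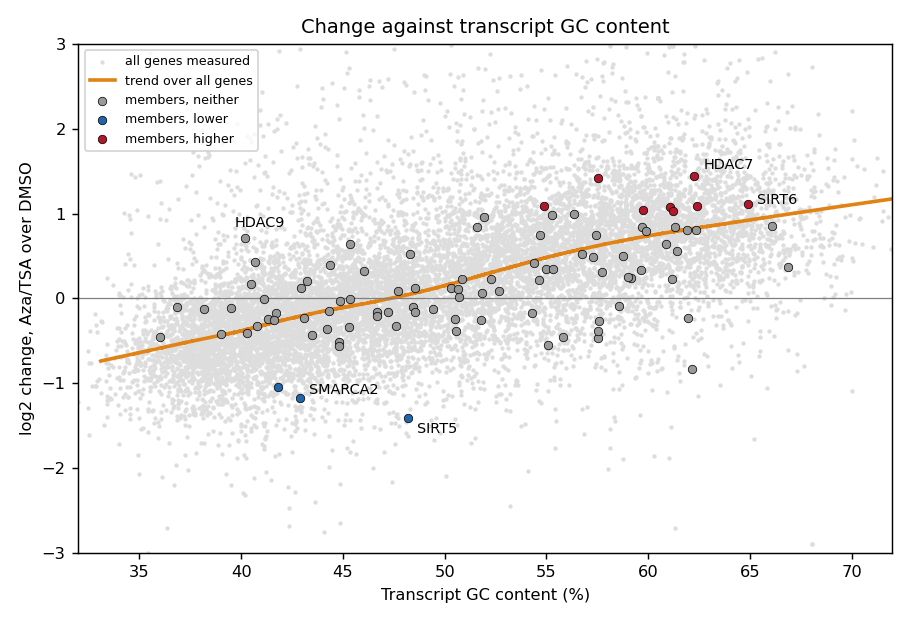
Log2 change, Aza/TSA over DMSO, against transcript GC content in percent; grey points are all measured genes, outlined points are members coloured by call, and the orange line is the trend over all genes. Called-higher members lie at 54.9% GC or more and called-lower members at 48.2% or less, and SIRT5 lies far below the line; a few genes fall outside the plotted range.

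The start regions of called genes did not separate in the same way. In the 250 bases before the most upstream start site that RefSeq lists, 86 members had a sequence. The called-higher members had a median of 23.5 CpG dinucleotides (15 to 45, 6 genes) and the called-lower members 29 (17 to 36, 3 genes), against 24.5 for the uncalled members and 21 for all measured genes. A CpG is the site of DNA methylation. RefSeq lists 1 start for HDAC7, 2 each for SIRT6 and SIRT5, and 4 for SMARCA2. Which start FaDu uses was not tested. The sequences below, with every CpG in capitals, lie before the most upstream start of 2 called-higher and 2 called-lower genes. They are from RefSeq on GRCh38.p14, another build than the hg19 of the expression values, and are written 5′ to 3′ on the strand of the gene.
HDAC7, higher, chr12:47819904-47820153, minus strand, 28 CpG: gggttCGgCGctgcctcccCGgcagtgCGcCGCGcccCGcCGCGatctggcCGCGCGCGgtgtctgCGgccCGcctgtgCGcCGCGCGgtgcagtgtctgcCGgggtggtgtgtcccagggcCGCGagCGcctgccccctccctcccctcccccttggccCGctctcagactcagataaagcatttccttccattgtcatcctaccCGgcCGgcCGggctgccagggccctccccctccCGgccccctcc
SIRT6, higher, chr19:4182564-4182813, minus strand, 23 CpG: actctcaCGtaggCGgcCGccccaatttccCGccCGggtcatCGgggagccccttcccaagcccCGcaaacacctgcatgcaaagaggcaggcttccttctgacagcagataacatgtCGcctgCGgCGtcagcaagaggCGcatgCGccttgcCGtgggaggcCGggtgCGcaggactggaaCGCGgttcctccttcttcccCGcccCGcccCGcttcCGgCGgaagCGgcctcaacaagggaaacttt
SIRT5, lower, chr6:13574279-13574528, plus strand, 36 CpG: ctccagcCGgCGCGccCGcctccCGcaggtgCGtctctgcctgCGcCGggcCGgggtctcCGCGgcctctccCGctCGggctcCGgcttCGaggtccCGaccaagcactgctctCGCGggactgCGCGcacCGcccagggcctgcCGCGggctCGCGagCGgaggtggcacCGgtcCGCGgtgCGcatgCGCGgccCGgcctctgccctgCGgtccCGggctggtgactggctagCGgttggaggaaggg
SMARCA2, lower, chr9:2015097-2015346, plus strand, 29 CpG: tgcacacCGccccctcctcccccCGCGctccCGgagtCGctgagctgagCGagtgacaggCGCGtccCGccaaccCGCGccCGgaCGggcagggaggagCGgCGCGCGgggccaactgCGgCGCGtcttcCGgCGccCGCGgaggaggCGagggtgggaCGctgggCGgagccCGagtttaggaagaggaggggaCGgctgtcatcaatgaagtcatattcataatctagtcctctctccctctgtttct
All 4 are rich in CpG, with 65.6 to 78.0% G or C, while the transcripts behind them range between 42.9% GC in SMARCA2 and 64.9% in SIRT6. The motif GGGCGG, known as the GC box, was found on either strand in 57 of the 83 measured members with a promoter (68.7%), against 42.2% of 27305 promoters, and CCAAT in 23 of them (27.7%), against 33%. The 27305 promoters are all those listed, also of genes not measured here. The members were limited to measured genes, so these shares do not compare like sets. The GC box was present in 4 of 6 called-higher and 3 of 3 called-lower promoters.

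Of 11 zinc-dependent deacetylases 3 were called higher, HDAC5, HDAC7 and HDAC11, and none lower, against 16.1% and 5.21% of all measured genes. After GC subtraction HDAC9 was higher and HDAC4 lower, against 7.41% and 4.26% of genes. All 4 class I enzymes were uncalled: HDAC1, a catalytic subunit of the NuRD, Sin3 and CoREST complexes, was 54.4 FPKM in the Aza/TSA library and 59.6 in the DMSO library, and its partner HDAC2 was 22.9 and 25.1 FPKM. HDAC3, the enzyme of the NCoR/SMRT complexes, was 27.4 and 25.7 FPKM, and the X-linked HDAC8 was 5.79 and 7.48 FPKM. The log2 changes of the class lay between −0.32 and 0.09, and between −0.25 and 0.35 after GC subtraction.

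The class IIa deacetylases, which have weak catalytic activity and act largely as binding partners of MEF2 transcription factors, held 2 of the called genes. HDAC7 was 18.1 FPKM in the Aza/TSA library and 6.04 in the DMSO library (log2 change 1.44, or 0.61 GC-subtracted), the largest change of any member on the main scale. With 0.1 added to each FPKM in place of 1, SIRT5 (−1.748), CBX8 (1.614) and HDAC11 (1.586) had wider changes than HDAC7 (1.565). HDAC5 was 6.21 and 2.54 FPKM (1.03, or 0.24). HDAC9 was 2.44 and 1.10 FPKM (0.72, or 1.09), and HDAC4 was 0.427 and 1.09 FPKM (−0.55, or −1.04). HDAC7 and HDAC5 thus passed 2-fold on the main scale and not after GC subtraction. HDAC9, whose transcript has 40.2% GC, and HDAC4 passed it, in opposite directions, after GC subtraction and not on the main scale. Both were below the 5 FPKM needed for the GC fit, so their GC-subtracted values are uncertain. HDAC4, HDAC9 and HDAC11 lay near 1 FPKM in the DMSO library, where an FPKM can rest on few reads.

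HDAC11, the sole class IV enzyme, was 3.23 FPKM in the Aza/TSA library and 1.01 in the DMSO library (1.07, or 0.29 GC-subtracted). The class IIb enzymes were uncalled, with the tubulin deacetylase HDAC6 at 8.10 and 6.34 FPKM and the polyamine deacetylase HDAC10 at 1.88 and 1.22. Summed over the family, deacetylase FPKM were 150.8 in the Aza/TSA library and 137.3 in the DMSO library. Class I made up 73.2% of that sum in the Aza/TSA library and 85.9% in the DMSO library, and class IIa 18.0% and 7.85%.

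**Figure D3:**
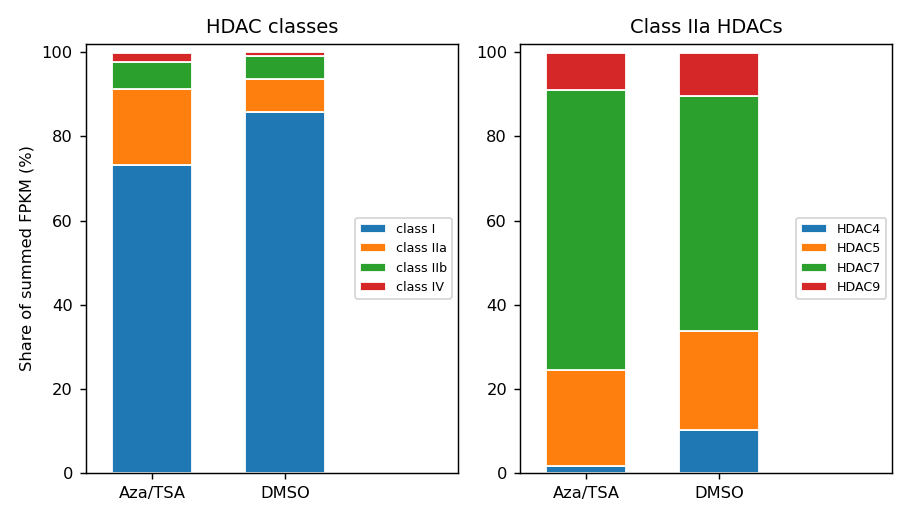
Share of summed FPKM in percent, in the Aza/TSA (left bar) and DMSO (right bar) libraries, for the 4 classes of zinc-dependent deacetylases and for the class IIa genes. Class IIa takes 18.0% of the deacetylase sum in Aza/TSA and 7.85% in DMSO, and within it HDAC7 takes 66.5% in Aza/TSA and 56.0% in DMSO.

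Of 6 measured sirtuins SIRT6 was called higher and SIRT5 lower, against 16.1% and 5.21% of all measured genes. Above their DMSO level were 7594 of 13558 measured genes. The 3 nuclear sirtuins were above their DMSO level (2 of 3 after GC subtraction): SIRT6, which deacetylates histone H3 at telomeres and gene promoters, was 6.95 FPKM in the Aza/TSA library and 2.67 in the DMSO library (1.11, or 0.19 GC-subtracted), the nucleolar SIRT7 was 35.6 and 20.01 FPKM (0.80, or −0.01), and SIRT1 was 12.8 and 11.2 FPKM (0.17, or 0.53). Of the mitochondrial ones, the desuccinylase SIRT5 was 2.05 FPKM in the Aza/TSA library and 7.13 in the DMSO library (−1.41, or −1.46), and SIRT3 was 2.03 and 2.96 FPKM (−0.39, or −1.01). SIRT5 had the lowest change of any member. SIRT4, also mitochondrial, was not measured, at 0.474 FPKM and listed at 0. SIRT2, the cytosolic tubulin deacetylase, was 7.39 and 6.01 FPKM (0.26, or −0.44). The nuclear sirtuins summed to 55.4 FPKM in the Aza/TSA library and 33.9 in the DMSO library, and the mitochondrial ones to 4.56 and 10.1.

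None of the 7 lysine acetyltransferases was called. KAT2A, the GCN5 enzyme of the SAGA complex, was 26.9 FPKM in the Aza/TSA library and 15.1 in the DMSO library (0.79, or 0.06 GC-subtracted), while its paralogue KAT2B was 2.55 and 2.92 FPKM (−0.14, or −0.01). In the MYST group KAT5, the TIP60 enzyme of the NuA4 complex, had the highest level of the family and was 42.2 and 44.9 FPKM. KAT7 was 22.02 and 17.4 FPKM, KAT6A was 15.2 and 15.3, and KAT6B was 4.59 and 6.07. KAT8, the MOF enzyme that acetylates histone H4, was 10.1 FPKM in the Aza/TSA library and 14.3 in the DMSO library (−0.47), and passed 2-fold lower after GC subtraction (−1.09).

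Of 16 lysine demethylases 14 were measured, 2 were higher and none lower, against 16.1% and 5.21% of all measured genes, and none was called after GC subtraction. KDM5C, an X-linked eraser of histone H3 lysine 4 methylation, was 16.5 FPKM in the Aza/TSA library and 7.24 in the DMSO library (1.09, or 0.62 GC-subtracted), while KDM5A was 14.5 and 13.2 FPKM and KDM5B 22.2 and 16.6. KDM6B, an inducible eraser of the Polycomb mark on histone H3, was 11.4 FPKM in the Aza/TSA library and 4.83 in the DMSO library (1.09, or 0.26). Its X-linked paralogue KDM6A was 5.60 and 7.91 FPKM (−0.43, or −0.26). The pair thus changed order, with KDM6B at 2.03 times KDM6A in the Aza/TSA library and 0.610 times in the DMSO library.

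KDM2A, which binds unmethylated CpG and removes methyl groups from lysine 36 of histone H3, was 57.6 FPKM in the Aza/TSA library and 31.8 in the DMSO library (0.84, or 0.58), the highest demethylase in the Aza/TSA library. KDM2B was 10.3 and 7.90 FPKM. KDM1A, the LSD1 enzyme of the CoREST complex, was 39.4 and 33.4 FPKM (0.23, or 0.03), and it had the highest level of the family in the DMSO library. The other members, KDM1B, KDM3A, KDM3B, KDM4A, KDM4B and KDM4C, had log2 changes between −0.25 and 0.23. KDM4D was below 1 FPKM in both libraries, at 0.731 and 0.795 FPKM, and its near copy KDM4DL was 0.0558 FPKM and listed at 0.

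All 17 SET-domain genes of the SETD, SUV, EHMT and EZH families were measured and none was called. The catalytic subunits of the SET1 complexes that methylate lysine 4 of histone H3 were above their DMSO level together (1 of 2 after GC subtraction), SETD1A at 17.1 and 9.29 FPKM (0.81, or −0.02 GC-subtracted) and SETD1B at 14.1 and 7.46 FPKM (0.84, or 0.05), each pair with the Aza/TSA library first. SETD3, known as a methyltransferase of actin, was 33.6 FPKM in the Aza/TSA library and 21.2 in the DMSO library (0.64, or 0.73), and SETD8, which adds the first methyl group to lysine 20 of histone H4, was 43.5 and 41.7 FPKM (0.06, or −0.22). The other SETD genes, SETD2 and SETD4 to SETD7, had log2 changes between −0.37 and 0.20.

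The enzymes of lysine 9 of histone H3, a mark of silent chromatin, were uncalled. EHMT1 was 25.6 FPKM in the Aza/TSA library and 17.9 in the DMSO library (0.49, or −0.12), and EHMT2, the G9a enzyme, was 17.3 and 10.8 FPKM (0.64, or −0.14). SUV39H1 was 5.26 and 6.55 FPKM (−0.27, or −0.90), and SUV39H2 was 6.002 and 6.014 FPKM (a log2 change within 0.01 of 0, or 0.31). SUV420H1 and SUV420H2, which methylate lysine 20 of histone H4, were 50.6 and 37.4 FPKM (0.43, or 0.77) and 4.89 and 2.26 FPKM (0.85, or −0.11).

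Both catalytic subunits of Polycomb repressive complex PRC2 were below their DMSO level without passing 2-fold. EZH2 was 18.9 FPKM in the Aza/TSA library and 27.5 in the DMSO library (−0.52, or −0.40 GC-subtracted), and EZH1 was 4.17 and 5.11 FPKM (−0.24, or −0.42). The core partners SUZ12 and EED were 21.7 and 30.2 FPKM (−0.46, or 0.02) and 15.2 and 18.7 FPKM (−0.28, or −0.21). In the list of 22 proliferation genes, with which EZH2 is known to vary, 1 was higher and none lower, and the median log2 change was 0.21 (−0.05 GC-subtracted).

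Of 8 arginine methyltransferases 7 were measured and none was called. PRMT5, the main enzyme of symmetric arginine dimethylation, was 111.4 FPKM in the Aza/TSA library and 56.6 in the DMSO library (0.96, or 0.69 GC-subtracted), just under the 2-fold line. PRMT1, the main enzyme of asymmetric dimethylation, was 87.2 and 60.6 FPKM (0.52, or −0.06), and PRMT7, which adds single methyl groups, was 14.6 and 8.25 FPKM (0.75, or 0.13). PRMT2 was 35.7 and 49.2 FPKM (−0.45, or −0.98). The highest level of the family was that of PRMT5 in the Aza/TSA library and that of PRMT1 in the DMSO library. PRMT3, PRMT6 and PRMT10 had log2 changes between −0.25 and 0.12. PRMT8, a brain enzyme, was 0.0278 FPKM in each library.

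Among the readers of acetylated lysine, 6 of 7 measured bromodomain genes were above their DMSO level (3 of 7 after GC subtraction) and none passed 2-fold. Of all measured genes 7594 of 13558 were above their DMSO level (6427 of 12526 after GC subtraction). BRD9, of the non-canonical SWI/SNF complex, was 30.5 FPKM in the Aza/TSA library and 14.99 in the DMSO library (0.98, or 0.48), just under the line, and BRD8, of the NuA4 complex, was 43.6 and 30.1 FPKM (0.52, or 0.47). BRD2 was the most abundant of the family, at 107.7 and 84.8 FPKM (0.34, or −0.14). BRD1 was 23.8 and 20.3 FPKM and BRD3 18.96 and 15.98. BRD7, of the PBAF complex, was below its DMSO level, at 47.5 and 55.9 FPKM (−0.23, or −0.03). The testis member of the BET group, BRDT, is named apart since its symbol carries no digit: it was 7.79 FPKM in the Aza/TSA library and listed at 0 in the DMSO library. The pseudogene BRD7P3 stayed under 1 FPKM.

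**Figure D4:**
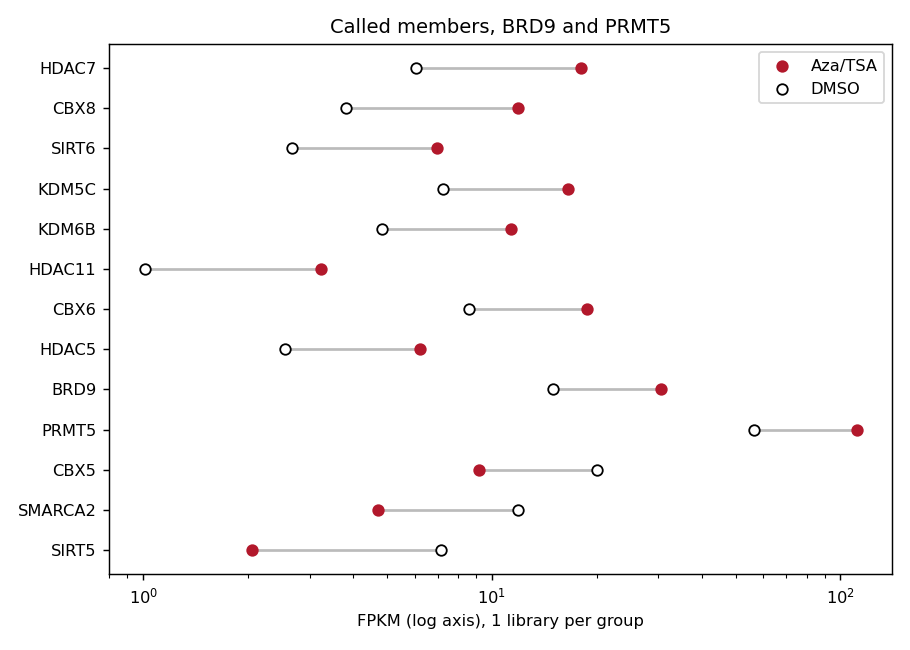
FPKM on a log axis in the Aza/TSA (filled) and DMSO (open) libraries for the 11 called members and for BRD9 and PRMT5. The uncalled BRD9 and PRMT5 lie within 0.1 of the 2-fold line on the log2 scale. So do the called HDAC5, HDAC11, KDM5C, KDM6B, CBX6 and CBX5. Genes are ordered by log2 change, with HDAC7 at 18.1 and 6.04 FPKM at the top and SIRT5 at 2.05 and 7.13 FPKM at the bottom.

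Of 8 measured chromobox genes 2 were called higher and 1 lower, against 16.1% and 5.21% of all measured genes. The 3 heterochromatin proteins of the HP1 group, which bind methylated lysine 9 of histone H3, were all below their DMSO level (2 of 3 after GC subtraction). So were 5964 of 13558 measured genes. CBX5 (HP1 alpha) was 9.21 FPKM in the Aza/TSA library and 20.1 in the DMSO library (−1.04, or −0.77 GC-subtracted), CBX1 was 42.8 and 53.8 FPKM (−0.32, or −0.34), and CBX3 was 133.4 and 144.9 FPKM (−0.12, or 0.29). CBX3 had the highest level of all members, and it has processed copies such as CBX3P2 (0.340 and 0.632 FPKM) with which reads could be shared.

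Of the 5 Polycomb chromobox genes, alternative subunits of repressive complex PRC1, 2 were called higher and none lower, against 16.1% and 5.21% of all measured genes. After GC subtraction none was higher and 1 was lower, against 7.41% and 4.26% of genes. CBX8 was 11.9 FPKM in the Aza/TSA library and 3.82 in the DMSO library (1.42, or 0.80 GC-subtracted), CBX6 was 18.7 and 8.60 FPKM (1.04, or 0.31), and CBX2 was 6.16 and 3.00 FPKM (0.84, or 0.12). CBX7 was 4.37 and 3.55 FPKM (0.24, or −0.46).

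The 5 ING genes, whose PHD fingers read methylated lysine 4 of histone H3 and tether acetyltransferase or deacetylase complexes there, had no called gene. ING1, ING2 and ING3 were 13.7, 12.0 and 12.5 FPKM in the Aza/TSA library and 12.8, 12.9 and 13.5 in the DMSO library. ING4 was 6.57 and 8.91 FPKM (−0.39, or −0.58 GC-subtracted), and ING5 was 2.85 and 3.33 FPKM (−0.17, or −0.61). All 5 log2 changes lay between −0.39 and 0.09.

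All 13 SMARC genes were measured, 1 was lower and none higher, against 5.21% and 16.1% of all measured genes. Of the alternative ATPases of the SWI/SNF complexes the called one, SMARCA2 (BRM), was 4.72 FPKM in the Aza/TSA library and 11.9 in the DMSO library (−1.17, or −0.96 GC-subtracted), and SMARCA4 (BRG1) was 17.4 and 11.5 FPKM (0.56, or −0.23). SMARCA4 stood at 3.70 times SMARCA2 in the Aza/TSA library and 0.967 times in the DMSO library, so that near-equal levels in the DMSO library became unequal. The difference between the log2 changes of the pair was 1.73, and 0.73 after GC subtraction.

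The shared SWI/SNF subunits were uncalled. SMARCD1 was 34.6 FPKM in the Aza/TSA library and 20.2 in the DMSO library (0.75, or 0.29 GC-subtracted), SMARCD2 was 36.5 and 25.6 FPKM (0.50, or −0.18), and SMARCD3 was 2.23 and 2.80 FPKM (−0.23, or −1.05). The core subunit SMARCB1 was 46.6 and 36.9 FPKM, the scaffold SMARCC1 21.95 and 25.4, and its paralogue SMARCC2 19.8 and 14.5. SMARCE1, the most abundant of the family in the DMSO library, was 38.2 FPKM in the Aza/TSA library and 56.8 in the DMSO library (−0.56, or −0.44). The ISWI ATPases were below their DMSO level (1 of 2 after GC subtraction), SMARCA5 at 17.7 and 23.9 FPKM (−0.42, or 0.02) and SMARCA1 at 1.78 and 2.68 FPKM (−0.40, or −0.04). The helicases SMARCAD1 and SMARCAL1 were at 7.28 and 10.4 FPKM and at 4.69 and 5.77 FPKM.

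The ratio between related genes differed between the libraries in some pairs. Apart from the pairs above, HDAC7 stood at 42.3 times HDAC4 in the Aza/TSA library and 5.53 times in the DMSO library, KAT2A at 10.5 and 5.16 times KAT2B, and BRD9 at 0.641 and 0.268 times BRD7. SIRT6 stood at 0.544 and 0.238 times SIRT1, and the difference between their log2 changes was 0.94, or −0.34 after GC subtraction, the opposite direction. Other pairs kept their ratio, with HDAC2 at 0.422 and 0.421 times HDAC1, SETD1B at 0.828 and 0.804 times SETD1A, and EHMT2 at 0.677 and 0.602 times EHMT1. After GC subtraction the difference between the log2 changes was 1.65 for HDAC7 and HDAC4, 0.07 for KAT2A and KAT2B, and 0.60 for HDAC2 and HDAC1. The pairs were chosen with their values in view.

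**Figure D5:**
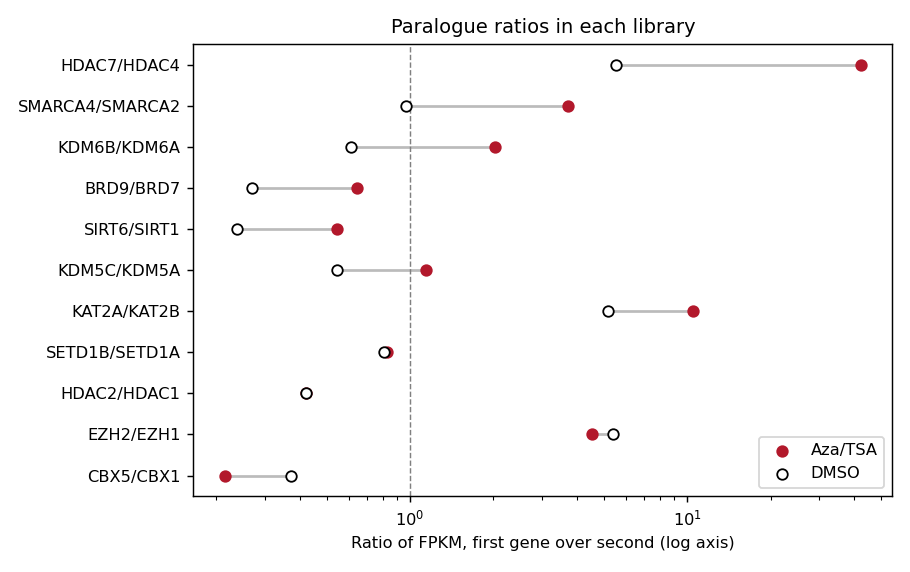
Ratio of FPKM between 2 genes of a family on a log axis, first named over second, in the Aza/TSA (filled) and DMSO (open) libraries; the dashed line marks equal levels. The ratio of SMARCA4 to SMARCA2 is 3.70 in Aza/TSA and 0.967 in DMSO, while that of HDAC2 to HDAC1 is 0.422 and 0.421.

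Of 18 members with a mean under 5 FPKM over both libraries, 3 were higher and 1 lower, where 19.5% of genes at such levels were higher and 4.49% lower. All 8 higher members were between 1.01 and 8.60 FPKM in the DMSO library, and the 3 lower ones between 7.13 and 20.1 FPKM. The DMSO level is part of the change that made the calls, so the 2 are not independent. Of 34 members with a mean of 20 FPKM or more over both libraries none was called, where 13.7% of 3662 genes at such levels were higher and 5.32% lower. Of 43 members with a mean between 5 and 20 FPKM, 5 were higher and 2 lower, where 14.3% of genes were higher and 5.84% lower. The KAT, PRMT, SETD, SUV, EHMT, EZH, BRD and ING families held no called member.

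The partners of these enzymes, taken from 8 lists written from general knowledge, were read by the same rules, by which 16.1% of all measured genes were higher and 5.21% lower (7.41% and 4.26% after GC subtraction). Of 32 deacetylase complex partners 6 were higher and 2 lower (none and 2 after GC subtraction). The NuRD subunit MBD3 was 22.6 FPKM in the Aza/TSA library and 7.91 in the DMSO library (1.41, or 0.57), and TBL1XR1, a subunit of the NCoR complexes, was 30.1 and 82.4 FPKM (−1.42, or −0.76). Of 29 Polycomb partners 3 were higher and 1 lower, with PHF1 at 15.8 and 5.07 FPKM (1.47, or 0.73), PCGF2 at 30.9 and 12.5 FPKM (1.24, or 0.62), and PCGF5 at 2.76 and 7.58 FPKM (−1.19, or −0.48). BMI1, a PCGF protein of PRC1, was 3.13 and 1.09 FPKM (0.98, or 1.41).

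Of 35 measured genes for other ATP-dependent remodelers 2 were higher and 2 lower, with INO80B at 13.6 FPKM in the Aza/TSA library and 1.08 in the DMSO library (2.81, or 1.97), BAZ2B at 4.38 and 11.1 FPKM (−1.17, or −0.79) and CHD9 at 6.37 and 14.7 FPKM (−1.09, or −0.63). None of 25 other acetyltransferase genes and partners was called, with the coactivators EP300 at 52.9 and 34.05 FPKM and CREBBP at 24.8 and 14.6, the scaffold BRPF1 at 10.8 and 4.94 (just under the line) and HAT1, which acetylates new histone H4, at 38.3 and 71.8. None of 17 measured BAF and PBAF partners was called, with DPF2 at 54.0 and 27.1 FPKM (0.97, or 0.61) and ARID1A at 20.01 and 10.2 (0.91, or 0.29). Of 23 measured genes listed as other lysine methyltransferases 1 was higher and 1 lower, SMYD3 at 3.15 and 7.48 FPKM (−1.03, or −1.13). That list also holds the uncalled CARM1, an arginine methyltransferase. Of 17 measured other demethylases and JmjC proteins 3 were higher, among them the skin corepressor HR at 5.07 and 1.16 FPKM (1.49, or 0.54) and JMJD4 at 8.39 and 2.54 FPKM (1.40, or 0.58), none of the 3 after GC subtraction, and 1 lower, HSPBAP1 at 1.92 and 6.91 FPKM (−1.43, or −1.33). Of 20 measured other bromodomain readers 2 were higher, BRDT and the interferon-induced SP110 at 30.5 and 9.05 FPKM (1.65, or 1.62).

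All 12 genes of the squamous epithelial list, which also holds the simple-epithelium keratins KRT8 and KRT18, were at 15.2 FPKM or more in both libraries. Of these KRT8, KRT14 and KRT18 were called higher and 2 lower, KRT5 and TP63. KRT14 was 147.1 FPKM in the Aza/TSA library and 49.8 in the DMSO library (1.54, or 0.785). KRT8 was 1356 and 459 FPKM (1.56, or 1.18) and KRT18 1235 and 513.7 FPKM (1.26, or 0.67). KRT5 was 226.0 and 686.5 FPKM (−1.60, or −2.18), and TP63 was 23.2 and 73.7 FPKM (−1.63, or −1.39). The keratins thus differed in both directions. The simple-epithelium pair KRT8 and KRT18 was higher, while the basal keratins KRT14 and KRT5 went in opposite directions. The leukocyte gene PTPRC was 0.0385 FPKM in the Aza/TSA library and 0.0513 in the DMSO library, and the endothelial KDR was listed at 0 in both. Of 8 leukocyte, 5 endothelial and 7 fibroblast markers 3, 1 and 1 were measured, each called higher, against 16.1% of all measured genes. Among them were CD68, a lysosomal protein of macrophages, at 51.3 and 13.0 FPKM and COL1A1 at 3.08 and 0.749 FPKM. CD3D, CDH5 and COL1A1 reached 1 FPKM only in the Aza/TSA library. The filter thus kept them through that library, and a call of lower was not possible for them. The FPKM of these 3 lists summed to 57.6 and 14.7, 3.89 and 0.943, and 3.65 and 0.794, each with the Aza/TSA library first. The part of these markers in the differences above was not tested. The columns summed to 516692 FPKM in the Aza/TSA library and 491963 in the DMSO library, and of 20 housekeeping genes 3 were higher and none lower (median log2 change 0.11, or −0.05 GC-subtracted).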

How the data were processed

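The deposited table holds 1 FPKM column per library for 25593 rows, per the file headers. Per the submitters' processing notes, the authors used TopHat 1.3.2, Cufflinks 2.0.2 and the hg19 build; the sources used here do not name the annotation, filters or scaling between columns. The number of reads is unknown: 182 and 204 values in the Aza/TSA and DMSO columns lie above 0 and under 0.001 FPKM, so the values are estimates and not whole reads. Repeated rows (45) were summed per symbol. Changes, medians and counts were computed with pandas 2.3.3, without rescaling. GC content came from each gene's longest coding transcript in GENCODE release 29 (100 members and 92.4% of measured genes matched). Its trend was fitted by lowess (statsmodels 0.14.6, fraction 0.3) over 7127 genes whose FPKM was 5 or more in each library, and was subtracted. The step was tested on simulated data and scored there only on the more strongly expressed genes. That test thus does not cover the weaker members called after GC subtraction. Promoters came from RefSeq. Named genes are all called members, members within 0.1 of the 2-fold line or listed at 0, the 3 widest changes and the highest DMSO level in each family, and up to 3 genes per partner list; the remaining members were named to account for each one, and BMI1, BRDT, EP300, CREBBP, SUZ12, EED and the marker genes were chosen after their values were seen. Some genes that this rule covers are not reported here. Members and lists were chosen with earlier results of these data known.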

Additional observations from a re-analysis of the deposited data

How the results depend on the processing

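The counts of called members depended on the setting. With 8 higher and 3 lower as reported, there were 13 higher with a pseudocount of 0.1, 1 higher and 0 lower with a pseudocount of 5, 2 higher after centring on the median, 4 higher with upper-quartile scaling, 1 higher and 6 lower after GC subtraction, 23 higher at 1.5-fold, and 0 higher and 0 lower at 3-fold. No called member changed sign in any setting tried. The median change of the members, 0.12, turned to −0.013 after centring and −0.053 after GC subtraction. GC subtraction turned the family medians of the sirtuins (−0.22), SETD proteins (−0.017), EHMT enzymes (−0.13), bromodomain proteins (−0.029) and chromobox proteins (−0.11). Centring turned those of the arginine methyltransferases (−0.013), SETD proteins (−0.009) and chromobox proteins (−0.069). The chromobox median also turned with no filter (−0.12), a filter at 5 FPKM (−0.12), scaling to TPM (−0.19), upper-quartile scaling (−0.036) and subtraction of the trend on transcript length (−0.043), which turned the arginine methyltransferases too (−0.024). The SUV median turned to −0.002 with the filter at 5 FPKM. The cause was not tested. No paired analysis was possible because each group has 1 library. FPKM without read counts give no error for a single value, which limits most the genes near 1 FPKM.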
